A study of Mus musculus with 3 samples.

Results

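The genes described here are 38 mouse genes of glycolysis, of its links to lactate and to the mitochondrion, and of the pentose phosphate pathway. They were taken as a named list and matched by gene symbol, and they are 38 of 55341 symbols in the transcript annotation, of which 21924 are protein-coding. Each of 37 members has 1 gene identifier. Aldoa has 2, whose values were summed, and the second held a mean of 0.070 TPM. TPM is transcript abundance corrected for transcript length and scaled to a fixed total in each library.

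Polyadenylated RNA was sequenced from primary macrophages derived from C57BL/6J bone marrow, in 3 biological replicates that form 1 group. The cells received 100 ng/ml lipid A, the membrane anchor of bacterial lipopolysaccharide, for 12 hours, spent 12 hours after washout, and received 100 ng/ml again for 180 minutes. Other label fields call the agent lipoprotein A and list it as a protein. Age and sex were not collected, no genotype beyond the strain was given, and all 3 replicates carry 1 donor record, so the spread between them may be technical in part. With no untreated sample there was no contrast between conditions. An exact two-sided sign-flip test within 3 replicates cannot go below p = 0.25, so the values below are levels and spreads with no p-values.

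Glycolysis splits glucose into pyruvate, and lactate dehydrogenase then turns pyruvate into lactate, which leaves the cell through monocarboxylate transporters. Pyruvate can instead enter the mitochondrion and be oxidised by pyruvate dehydrogenase, which the pyruvate dehydrogenase kinases switch off. The pentose phosphate pathway branches off at glucose 6-phosphate and supplies NADPH, used by the oxidase and nitric oxide synthase of macrophages, and ribose for nucleotides. Many steps can be carried out by several isozymes encoded by separate genes, and macrophages given lipopolysaccharide are known for a high glycolytic rate.

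Pyruvate kinase shows isozyme choice within 1 gene. Pkm carries a pair of mutually exclusive exons, and transcripts with the upstream exon encode the M1 enzyme while those with the downstream exon encode the M2 enzyme, whose activity is regulated by fructose 1,6-bisphosphate. Both exons are shown because the transcript results below turn on them. They were read from the GENCODE M21 transcripts, lie on the plus strand of GRCm38 (mm10), and are each exon 9 of their transcript, 167 bases long and coding. Capitals mark the 64 positions at which they differ, and the other 103 positions (61.7%) are identical, with a longest identical run of 12 bases.
M1 exon of Pkm-202, chr9:59675029-59675195: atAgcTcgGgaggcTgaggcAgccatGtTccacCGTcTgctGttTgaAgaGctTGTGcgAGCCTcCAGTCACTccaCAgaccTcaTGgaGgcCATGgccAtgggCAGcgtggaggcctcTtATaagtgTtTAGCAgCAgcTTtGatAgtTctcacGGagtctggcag
M2 exon of Pkm-201, chr9:59675568-59675734: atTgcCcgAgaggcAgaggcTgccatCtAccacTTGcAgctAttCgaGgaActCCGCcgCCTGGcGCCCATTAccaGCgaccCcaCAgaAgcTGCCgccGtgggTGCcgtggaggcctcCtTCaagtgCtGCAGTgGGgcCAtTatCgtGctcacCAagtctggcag

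The libraries held 23418690, 36863611 and 37728915 expected counts in replicates 1, 2 and 3. All 10 macrophage markers examined were at 1 TPM or more in every replicate. Of the marker lists for B, T, NK, dendritic, mast or basophil, erythroid and stromal cells, 0 genes reached that level in all replicates, and 2 of 8 neutrophil markers did. In bulk RNA, fewer cells of a type and less RNA per cell cannot be told apart. Replicates are given below in the order 1, 2, 3, and levels are in TPM, so that genes can be compared per length.

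The module was well represented. Of the 38 members, 36 reached 1 TPM in all 3 replicates, against 44.4% of protein-coding genes. The median member level was 5.38 ± 0.10 on the log2(TPM + 1) scale (SD, n = 3), against 0.43 over all protein-coding genes and 4.24 over those at 1 TPM or more in every replicate. By mean level, 15 members were at 100 TPM or more, 13 between 10 and 100, and 10 under 10. Summed over members, the module took 5546, 4639 and 5665 TPM, a mean of 5283 ± 561 TPM or 0.528% of the total. Members from glucose uptake to lactate dehydrogenase summed to 4750, 3952 and 4880 TPM. Pentose phosphate members summed to 719, 619 and 706 TPM, so the glycolytic sum was 6.61, 6.39 and 6.91 times as large. The glycolytic sum takes in more genes and steps, Gapdh at 1357 TPM among them, so these ratios do not compare levels per gene.

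**Figure D1:**
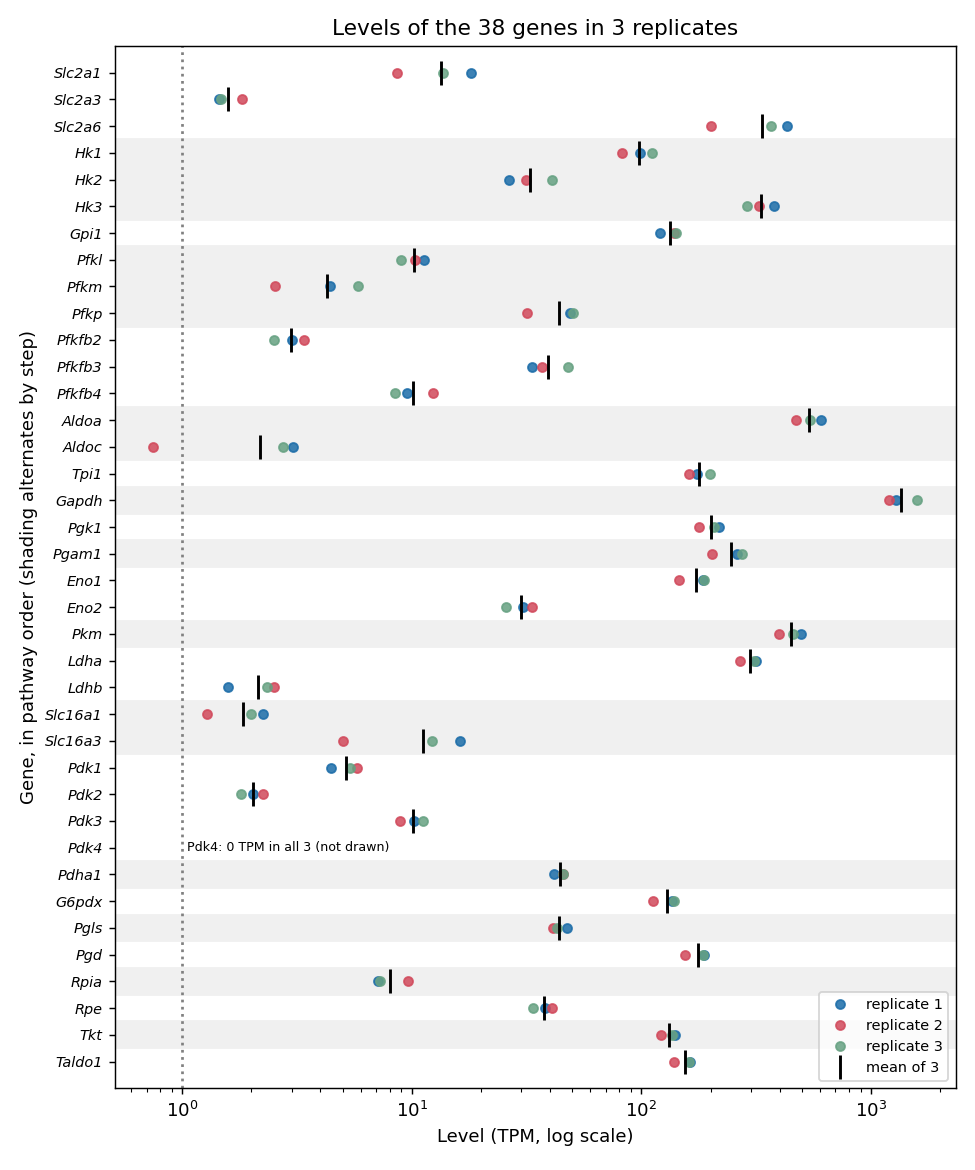
Level of each of the 38 members in TPM on a log axis, in pathway order, with 1 colour per replicate, a bar at the mean and a dotted line at 1 TPM. Gapdh is highest at 1357 TPM, Pdk4 is listed at 0 in all 3 replicates, and most members hold their 3 points close together.

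Among the Slc2a genes listed under glucose uptake, Slc2a6 held most of the TPM. It encodes GLUT6, a hexose transporter of internal membranes, so its share does not measure transport at the plasma membrane. Slc2a6 (ENSMUSG00000036067.12, chr2:27021363-27027998, minus strand) was at 432, 201.6 and 367 TPM, a mean of 334 ± 119 TPM. Replicate 2 was low and the other replicates were high. Slc2a1, which encodes GLUT1, the general transporter of the plasma membrane, was at 18.1, 8.66 and 13.7 TPM, with replicate 2 again the lowest. Slc2a3, the high-affinity transporter GLUT3, was at 1.45, 1.83 and 1.48 TPM. Although both Slc2a6 and Slc2a1 varied more than 2-fold, they kept their proportion, since Slc2a6 exceeded Slc2a1 by 23.9-, 23.3- and 26.9-fold. Of the 11 Slc2a genes counted at this step, Slc2a6 took 92.9%, 86.4% and 91.3% of the summed TPM. The other listed transporters at 1 TPM or more were Slc2a8 at 6.82 ± 1.08 TPM and Slc2a9, better known for urate transport, at 11.3 ± 3.30 TPM, a level whose replicates overlapped those of Slc2a1. Slc2a2, Slc2a4 (the insulin-responsive GLUT4) and Slc2a13 were listed at 0.

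Hexokinase, which traps glucose as glucose 6-phosphate, was led by Hk3. Hk3 (ENSMUSG00000025877.14, chr13:55005985-55021385, minus strand), the hexokinase of myeloid cells, was at 377, 326 and 289 TPM. Hk1, the broadly expressed isozyme that binds mitochondria, was at 99.0, 82.5 and 111 TPM. Hk2, the inducible isozyme, was at 26.4, 31.4 and 40.6 TPM, and at 12.5, 16.1 and 24.3 TPM in a second set of tables that the authors made directly from the reads. The 3 genes did not overlap in any replicate, and Hk3 exceeded Hk1 by 3.81-, 3.95- and 2.61-fold. Hk3 was lowest where Hk1 and Hk2 were highest, in replicate 3, so that its share of the step was 73.1%, 71.0% and 63.2%. Hkdc1 was listed at 0, and Adpgk, which phosphorylates glucose with ADP, was at 16.3 ± 2.79 TPM. Gpi1, which converts glucose 6-phosphate to fructose 6-phosphate and has no second gene in the list, was at 121, 139 and 142 TPM.

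Phosphofructokinase 1, the committed step, was 16th of the 23 steps by summed level. Its genes together reached 58.1 ± 11.8 TPM, against 477 ± 33.5 TPM for hexokinase before it and 540 ± 67.8 TPM for aldolase after it, and no replicate of either neighbour overlapped it. Pfkp, the platelet-type subunit, was at 48.7, 31.6 and 50.5 TPM. Pfkl, the liver-type subunit, was at 11.3, 10.3 and 8.95 TPM, and Pfkm, the muscle-type subunit, at 4.39, 2.54 and 5.86 TPM. Their order was the same in every replicate, with Pfkp holding 74.7 ± 3.22% of the step. Pfkm had its lowest value in replicate 2. The bifunctional enzymes that make and remove fructose 2,6-bisphosphate, the activator of phosphofructokinase 1, summed to 54.0 ± 6.67 TPM. Pfkfb3, whose kinase activity predominates, was at 33.3, 36.9 and 47.9 TPM and led this step with 72.5 ± 5.72%. Pfkfb4 was at 9.50, 12.4 and 8.43 TPM and Pfkfb2 at 3.01, 3.39 and 2.52 TPM. Pfkfb1, the liver-type gene, was at 1.57 ± 0.179 TPM.

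From aldolase onward a single gene took nearly everything at most steps. Aldoa, which cleaves fructose 1,6-bisphosphate, was at 603, 470 and 541 TPM. Aldoc, the brain-type aldolase, was at 3.03, 0.750 and 2.76 TPM and fell short of 1 TPM in replicate 2, where it had 37 expected counts. Aldoa therefore held 99.6 ± 0.199% of the step. Tpi1, which interconverts the triose phosphates, was at 175, 162 and 199 TPM.

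Gapdh (ENSMUSG00000057666.18, chr6:125161715-125166467, minus strand), the enzyme that reduces NAD during triose oxidation, was the most abundant member. It was at 1278, 1201 and 1590.2 TPM, ranked 77 among 9735 protein-coding genes at 1 TPM or more in every replicate, and made up 25.7% of the members' summed TPM. In the second set of tables it was lower, at 716, 806 and 1156 TPM. The ATP-yielding kinase Pgk1 was at 218, 179 and 206 TPM and the mutase Pgam1 at 261, 202 and 274 TPM. Their germ-cell or muscle-type counterparts were low, with Gapdhs and Pgk2 listed at 0 and Pgam2 at 0.87, 0.48 and 0.62 TPM. In the second set of tables Pgam2 was at 2.99, 3.27 and 3.52 TPM and Gapdhs at 0.180, 0.405 and 0.162 TPM. Bpgm, the mutase that makes 2,3-bisphosphoglycerate, was at 6.17 ± 0.947 TPM.

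Enolase was the 1 step of lower glycolysis at which a second gene took a sizeable share of the TPM. Eno1, the ubiquitous enolase, was at 186, 146 and 186 TPM. Eno2, known as the neuronal enolase, was at 30.5, 33.3 and 25.7 TPM, was highest where Eno1 was lowest, and took 14.7 ± 3.17% of the step. Transcripts annotated as coding held 59.8% of Eno2 TPM, against 99.5% for Eno1. In the second set of tables they held 47.6% and 98.7%. Eno3, the muscle enolase, was at 2.82 ± 0.845 TPM. The intronless copy Eno1b, at 4.90 ± 1.84 TPM here and listed at 0 in the second set of tables, shares most of its sequence with Eno1 and its level is uncertain.

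Pkm (ENSMUSG00000032294.17, chr9:59656368-59679375, plus strand) was at 495, 398 and 455 TPM, and Pklr, the liver and red-cell pyruvate kinase, was listed at 0. The transcript with the M2 exon printed above, Pkm-201, held 73.9%, 75.5% and 69.4% of the gene's TPM. Pkm-202, with the M1 exon, held 23.04%, 22.7% and 28.8%. These were 327 ± 34.0 and 112 ± 20.6 TPM, and the ranges did not overlap. The tables made directly from the reads gave 70.6 ± 2.5% and 26.1 ± 2.32%. The models also differ in the lengths of their first and last exons, so the shares do not rest on the alternative exon alone.

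**Figure D2:**
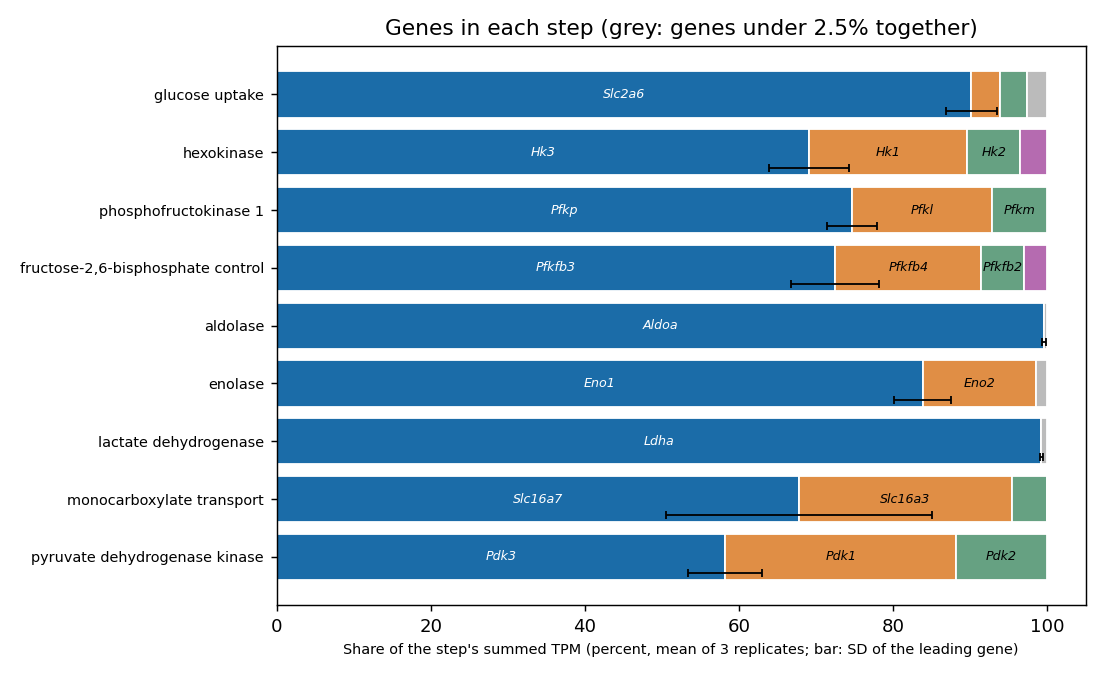
Share of a step's summed TPM taken by each gene, in percent as the mean of 3 replicates, for the steps where more than 1 member competes, with lines for the SD of the leading gene and grey for genes under 2.5% together. Unlabelled segments are, from left, Slc2a1 and Slc2a9 at glucose uptake, Adpgk at hexokinase, Pfkfb1 and Slc16a1, and aldolase and lactate dehydrogenase stand out as nearly all Aldoa (99.6%) and Ldha (99.3%).

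Lactate dehydrogenase was almost entirely Ldha, the subunit prevalent in glycolytic tissue. Ldha (chr7:46841475-46855627, plus strand) was at 315, 269.9 and 309 TPM and Ldhb, the heart-type subunit, at 1.59, 2.52 and 2.34 TPM. Ldha exceeded Ldhb by 198-, 107- and 132-fold. Ldhc and Ldhal6b were listed at 0.

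The bases before the start sites of Ldha and Ldhb are shown, from the RefSeq promoter table on GRCm38.p6. Each run ends at the base before the annotated start. Capitals mark CACGTG or CACGT, which hold ACGTG, a core bound by hypoxia-inducible factors that overlaps the E-box CACGTG, on 1 strand or both.
Ldha, chr7:46845554-46845803, plus strand: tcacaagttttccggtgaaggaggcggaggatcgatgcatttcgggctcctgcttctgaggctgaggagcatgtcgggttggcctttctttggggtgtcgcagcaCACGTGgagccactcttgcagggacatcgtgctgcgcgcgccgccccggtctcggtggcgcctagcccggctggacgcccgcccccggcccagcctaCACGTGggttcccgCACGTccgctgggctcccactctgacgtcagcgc
Ldhb, chr6:142507958-142508207, minus strand: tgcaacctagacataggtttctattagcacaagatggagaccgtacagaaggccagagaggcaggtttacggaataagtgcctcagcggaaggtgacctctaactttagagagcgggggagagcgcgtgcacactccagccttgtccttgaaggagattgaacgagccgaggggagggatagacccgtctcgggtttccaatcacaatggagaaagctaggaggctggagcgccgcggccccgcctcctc

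The Ldha stretch held CACGTG 2 times and a further CACGT, while the Ldhb stretch and that of a second annotated Ldha start held 0 matches. Of 38 members, 37 had an entry in that table. In windows from 250 bases before to 50 after a start, 19 of these 37 genes (51.4%) held ACGTG on either strand in at least 1 window, against 21.8% of all 27025 genes. CACGTG was present for 6 (16.2%), against 8.09%. A gene with more windows has more places for a match. Counted by window, 23 of 54 member windows (42.6%) held ACGTG, against 19.6% of all 32851 windows. The most in 1 member window was 5, counting both strands, for the Ldha start printed above, so that stretch is not typical of members. Member windows were richer in G and C, with a median of 60.7% against 52.7%. Among windows of at least 60% GC, 17 of 31 member windows held ACGTG, against 26.5% of 9690 windows. These matches describe the letters in the windows only. Binding was not measured, and a link between the matches and the levels was not tested.

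Monocarboxylate transport was the 1 step led by a gene outside the member list. Slc16a3, which encodes the lactate exporter MCT4, was at 16.1, 5.0 and 12.3 TPM. Slc16a1, which encodes MCT1, was at 2.24, 1.28 and 2.0 TPM. Both were lowest in replicate 2. Slc16a7, which encodes the high-affinity MCT2, was at 18.4, 34.2 and 31.7 TPM and held 49.96%, 84.5% and 68.9% of the step. It exceeded Slc16a3 by 1.14-fold in replicate 1 and 6.84-fold in replicate 2, and the log2 ratio of 1.44 ± 1.30 had the widest SD of the gene ratios computed. In the second set of tables Slc16a7 and Slc16a3 were nearly equal in replicate 1, at 12.40 and 12.38 TPM. Basigin (Bsg), the partner that brings MCT1 and MCT4 to the surface, was at 230.1 ± 19.4 TPM, and embigin (Emb), the usual partner of MCT2, at 30.4 ± 8.69 TPM.

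At the entry to the mitochondrion, Pdha1, the catalytic subunit of pyruvate dehydrogenase, was at 41.7, 45.4 and 45.6 TPM. Its kinases were much lower, at a summed 17.3 ± 0.886 TPM. Pdk3 was at 10.2, 8.91 and 11.1 TPM, Pdk1 at 4.44, 5.75 and 5.36 TPM and Pdk2 at 2.04, 2.24 and 1.80 TPM. Pdk3, Pdk1 and Pdk2 kept this order in every replicate. Pdk4, the kinase induced in fasting, had 0 expected counts in all 3 libraries. The limit that a count of 0 allows, 3 counts, corresponds to 0.128, 0.0814 and 0.0795 CPM (counts scaled to the library total), which covers counting error only. In the second set of tables Pdk4 was at 0.0914, 0.0208 and 0.0107 TPM. The lead of Pdk3 depended on length, because with expected counts not divided by length Pdk1 led in replicate 2 with 47.1% against 41.7%. The pyruvate carrier genes Mpc1 and Mpc2 were at 189 ± 10.6 and 42.8 ± 4.07 TPM.

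Among pentose phosphate genes, Pgd was the highest and Rpia the lowest in every replicate. In the oxidative branch, which makes NADPH, G6pdx was at 136, 112 and 139 TPM. Pgls, the lactonase that follows it, was at 47.5, 41.1 and 43.0 TPM, and Pgd, which makes the second NADPH, at 188, 155 and 186 TPM. In the non-oxidative branch the transaldolase gene Taldo1 was at 162, 139 and 161 TPM and the transketolase gene Tkt at 139.7, 121 and 136 TPM. Rpe, the epimerase, was at 38.03, 40.7 and 33.7 TPM. Rpia, the isomerase that releases ribose 5-phosphate, was lowest at 7.14, 9.62 and 7.24 TPM, last of the 23 steps. Rpe, which draws on the same ribulose 5-phosphate, was above it in every replicate. The paralogs G6pd2, Tktl1 and Tktl2 were at or near 0, and H6pd, the glucose 6-phosphate dehydrogenase of the endoplasmic reticulum, was at 7.91 ± 1.18 TPM.

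**Figure D3:**
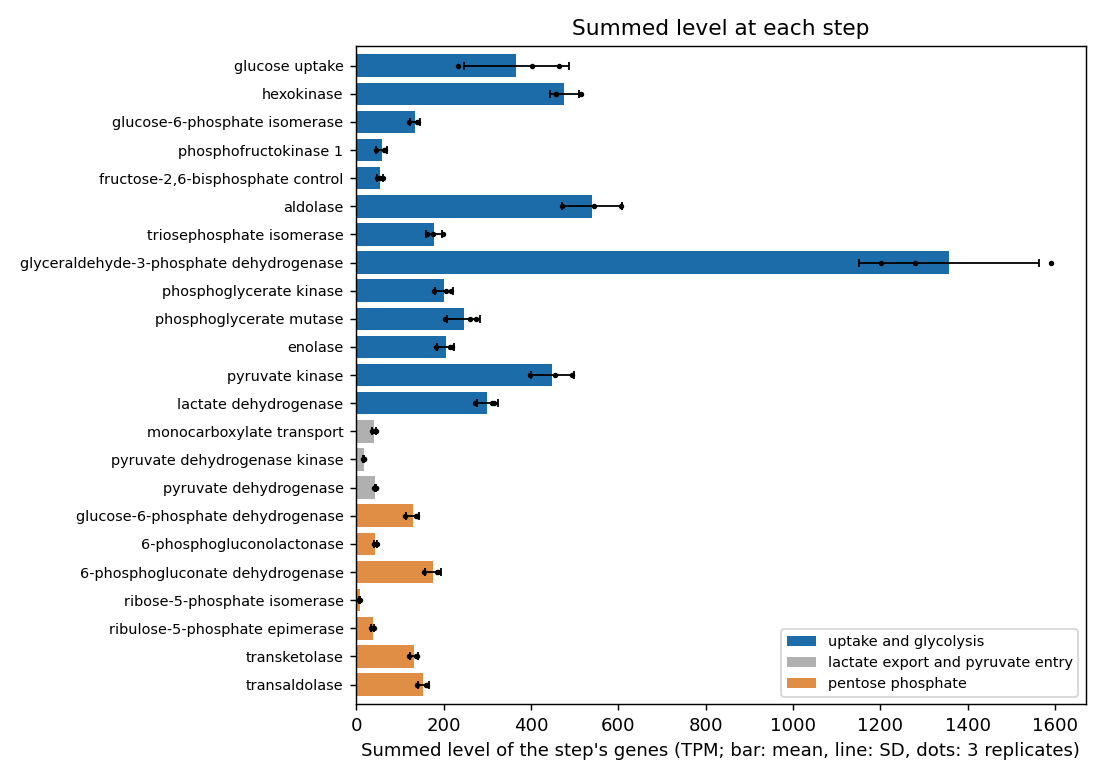
Summed TPM of the genes counted at each of the 23 steps, in pathway order on a linear axis from 0. Bars are means, lines the SD and dots the 3 replicates, and colours separate glycolysis, lactate export with pyruvate entry, and the pentose phosphate pathway. The sum drops at phosphofructokinase 1 (58.1 TPM) between hexokinase (477 TPM) and aldolase (540 TPM) and is lowest at ribose-5-phosphate isomerase (8.0 TPM).

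Step sums and shares count genes listed under the same step, which need not share 1 activity. Glucose uptake takes in all 11 listed Slc2a genes, among them Slc2a6 of internal membranes and Slc2a9, and hexokinase takes in Adpgk. Bsg, Emb, Bpgm, H6pd, Ldhd, Eno1b and the other pyruvate dehydrogenase subunits were left out. Across the module, 16 of 23 steps had more than 1 counted gene, and all 16 were led by the same gene in each of the 3 replicates. The leading gene held over 90% in the mean at 10 of them. Slc2a6 was close to this limit, at 90.2% in the mean and 86.4% in replicate 2. It was at 89.2% in the second set of tables and 86.4% with expected counts. The 6 mixed steps were hexokinase, phosphofructokinase 1, the control of fructose 2,6-bisphosphate, enolase, monocarboxylate transport and pyruvate dehydrogenase kinase. By sum, glyceraldehyde-3-phosphate dehydrogenase stood clear of aldolase in every replicate. The ranges of hexokinase (456 to 515 TPM), pyruvate kinase (398 to 495 TPM) and aldolase (471 to 606 TPM) overlapped. Within each replicate aldolase was the highest of these and pyruvate kinase the lowest. The margins were small in places, with hexokinase at 456.4 and pyruvate kinase at 455.4 TPM in replicate 3. Phosphoglycerate kinase and enolase also overlapped in range, at 179 to 218 and 183 to 219 TPM, with enolase slightly higher in each replicate.

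Of 37 members with a leading transcript, 33 had the same leader in both sets of tables, and 12 leaders held over 90% in both. Tkt was led by a transcript not annotated as coding in both sets. Tkt-209 held 65.4%, 71.2% and 65.3% of the gene's TPM, against 28.2 ± 4.11% for the coding Tkt-201, and it took 56.1% of the gene's expected counts. The leader differed between tables for Hk1, Pfkp, Pfkfb3 and Pdk1. Hk1 was led by Hk1-202 at 38.4% in one and by Hk1-212 at 30.1% in the other, and Pfkp by Pfkp-207 at 49.4% and Pfkp-201 at 55.5%. Pfkfb3 was led by Pfkfb3-220 at 42.2% and by Pfkfb3-206 at 53.0%. Pdk1 was led by the coding Pdk1-201 at 57.4% in the first set and by Pdk1-208, not annotated as coding, at 36.6% in the second. Hk2-202, of 594 bases, held 39.4 ± 5.90% of Hk2 TPM but 3.87% of its counts and 0 in the second table, and Gapdh-208, of 483 bases, held 23.6 ± 8.05% of TPM, 5.52% of counts and 1.26%. For Slc2a1, a transcript marked for nonsense-mediated decay, Slc2a1-204, held 2.17% in the first table and 45.0%, 19.1% and 3.43% in the second.

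**Figure D4:**
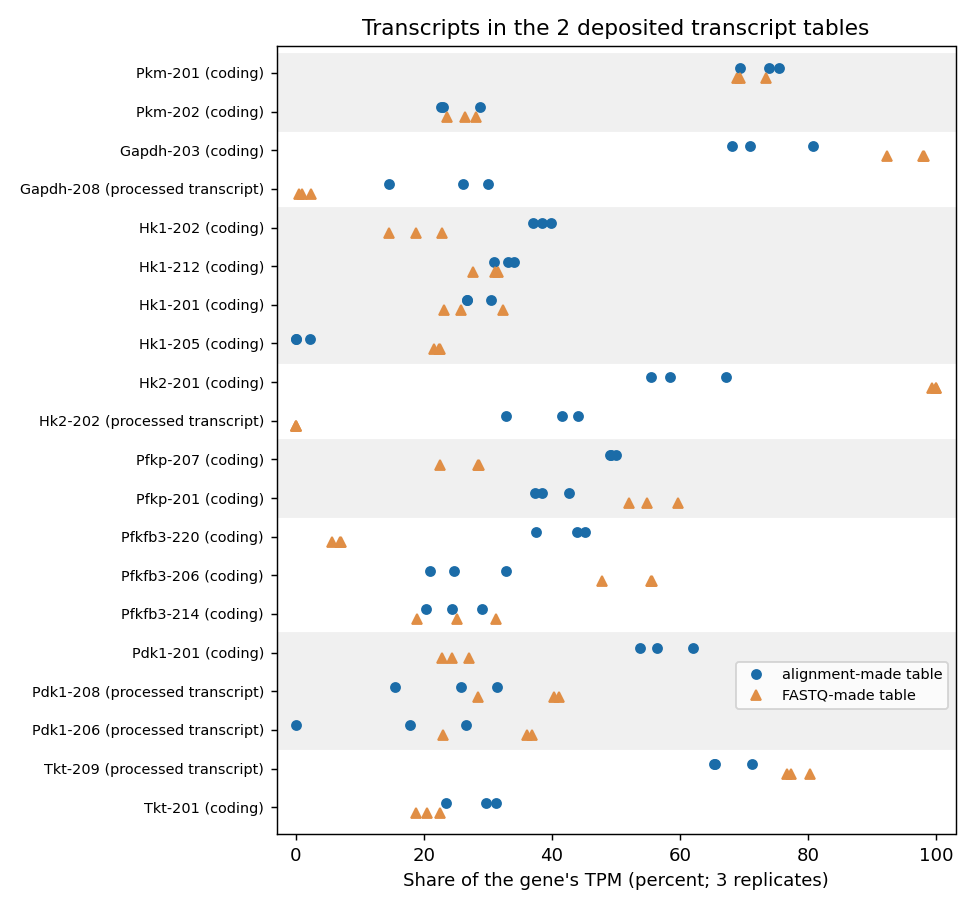
Share of a member's TPM held by selected transcripts, in percent, with circles for the alignment-made tables and triangles for the tables made directly from the reads, 1 symbol per replicate. Pkm-201 stays between 68.9% and 75.5% in both, while Hk2-202 and Gapdh-208 drop to 2.38% or less in the second.

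Several members have near-copies elsewhere in the genome. Of the 38, 16 shared at least 10% of their 31-base sequences with other genes, and Pgk1, with 54.7%, was the 1 above 50%. Pgk1-rs7, its main sharer, was at 0.0167 TPM. Gapdh shared 28.1%, mainly with Gm7336 at a mean of 40.9 TPM, and Pgam1 shared 37.1%, all with Pgam1-ps2 at 7.47 TPM. Pkm shared 34.7% and Eno1 28.5%, and these levels are uncertain to the extent that reads were split. Exons of 13 members overlap a gene on the opposite strand.

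Spread between replicates was close to that of other genes. The median coefficient of variation of scaled CPM was 13.9% over 37 members, against 13.2% over 12012 genes. Replicate 2 decided this value, since without it the member median was 6.99%, below the 11.6% of all genes, and without replicate 1 or 3 it was 15.6% or 15.7%, above 9.91% and 11.2%. Slc2a1, Slc2a6, Pfkm and Slc16a3 were the 4 of 36 members (11.1%) whose highest TPM was at least 2 times the lowest, against 6.48% of protein-coding genes at that level. All 4 (11.1% of 36) were lowest in replicate 2. Of 9735 protein-coding genes at that level, 631 had such a range. Of these 631, 288 were lowest in replicate 2, which is 2.96% of the 9735. In scaled CPM the range of Pfkm was 1.87-fold, and the other ranges were 2.08-fold for Slc2a1, 2.20-fold for Slc2a6 and 2.89-fold for Slc16a3. In the second set of tables Slc2a6 was at 286, 173 and 351 TPM and Slc16a3 at 12.4, 4.48 and 12.6 TPM, so replicate 2 was lowest there too.

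Over the whole list, 21 of 36 members (58.3%) were lowest in replicate 2, against 27.2% of protein-coding genes. With scaled CPM the count was 22, against 30.7%. In the second set of tables it was 9 (25%), against 16.7%, and 25 members (69.4%) were lowest in replicate 1, close to 74.5% of all such genes. The summed level of the 8 neutrophil markers was 12.1, 100.2 and 10.8 TPM. Most of it came from S100a8 at 6.84, 39.4 and 5.36 TPM and S100a9 at 4.20, 58.0 and 5.10 TPM. The other markers stayed low. Ltf was at 0.14, 1.73 and 0 TPM, Camp at 0.76, 0.97 and 0.24 TPM and Mpo at 0.17, 0.18 and 0 TPM. Elane was at 0, 0 and 0.11 TPM, and Ly6g and Retnlg were at 0 in all 3 libraries. Whether any of these genes had a part in the low values of replicate 2 was not tested.

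**Figure D5:**
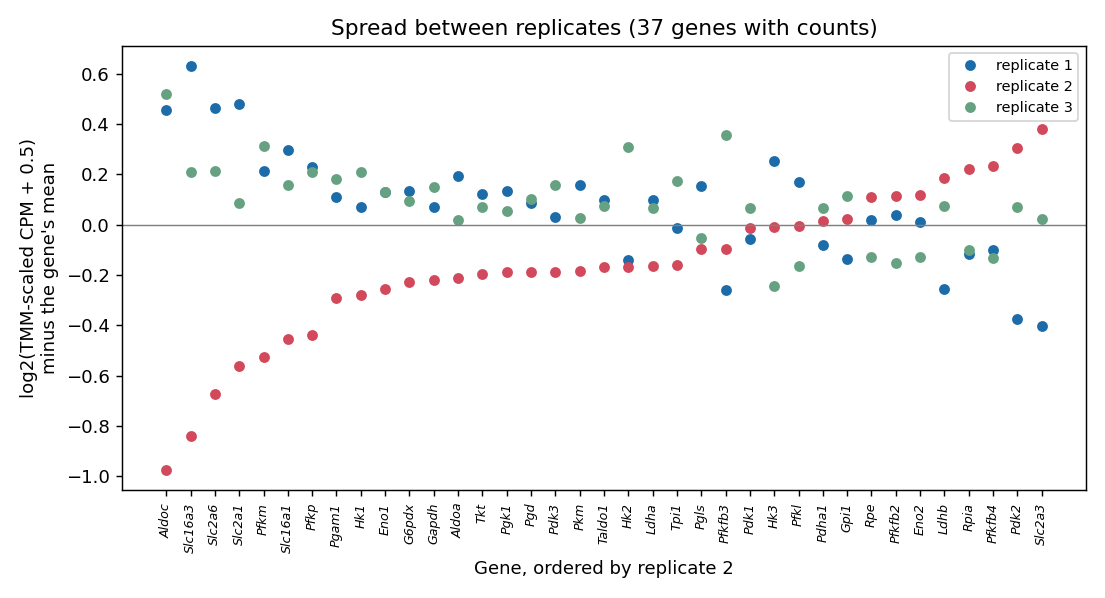
Deviation of each member from its mean over the replicates, in log2 of scaled CPM with 0.5 added, with 1 colour per replicate, for the 37 members with counts ordered by their value in replicate 2. Slc2a6 (-0.67), Slc16a3 (-0.84) and Aldoc (-0.97) have the lowest points of replicate 2, and most enzymes of lower glycolysis and the pentose phosphate pathway lie slightly below 0 in that replicate.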

How the data were processed

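The assembly was mm10 and the annotation M21, per the deposited file lists. For each sample the authors deposited gene and transcript tables from a transcriptome alignment, with expected counts and TPM per the file headers. They also deposited transcript tables made directly from FASTQ files, with estimated counts and TPM. Program names, versions and strand settings are not given in the sources used. Rows naming no gene of the transcript annotation took 0.194%, 0.124% and 0.125% of counts.

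Levels are deposited gene-table TPM with SD over 3 replicates. Shares are a gene's percent of its step's summed TPM. For spread, expected counts were rounded, kept by filterByExpr and scaled by TMM (factors 0.982, 1.03 and 0.992) in edgeR 4.0.16 with R 4.3.3. This step was checked on simulated data. DESeq2 1.42.0 size factors were an alternative. Python 3.11.15, numpy 2.4.6, pandas 2.3.3 and matplotlib 3.10.9 were also used. The members, steps and marker lists were chosen with earlier results of these data known. Every member is named. Other listed genes are named at 1 TPM or more in every replicate, or to state that they were lower. The transcripts named are a selection of those at 10% or more in either table. Promoters are RefSeq, GRCm38.p6. Alternatives were the FASTQ-made tables, other minimum levels and pseudocounts, expected counts, coding transcripts alone, other scalings and leaving out each replicate.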

Additional observations from a re-analysis of the deposited data

How the results depend on the processing

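With 3 replicates of 1 group, the depth and number of libraries limit all statements to levels and spreads. No paired analysis was possible because there is 1 group and no contrast. In the FASTQ-made tables the median member level was 5.14 against 5.38 on the log2(TPM + 1) scale and the members' summed level 4157 against 5283 TPM. There, 20 of 38 single levels moved by more than 1 SD, and the median ratio of the tables was 0.859 for members and 0.860 for protein-coding genes. The cause was not tested. Leaving out 1 replicate gave a median spread of 6.99% to 15.7%, against 13.9%, and the 6.99% came without replicate 2. Members at 1 TPM or more numbered 36, and 29 at a minimum of 5 TPM. Of 49 shares of leading genes recomputed with all replicates kept, 37 stayed within 1 SD, 12 moved and 0 reversed. The 16 steps with a single leader became 15 with expected counts, through Pdk1 in replicate 2, and 15 with coding transcripts alone, where Slc16a3 (49.0%) passed Slc16a7 (44.1%) in replicate 1. Counts of members lowest in replicate 2 under other scalings were chosen after seeing the data.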

Other observations

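Of 56 other genes listed around the pathway, 30 were at 1 TPM or more in every replicate. Among regulators, Hif1a, the oxygen-sensitive subunit of hypoxia-inducible factor, was at 51.6, 39.0 and 44.7 TPM, while its paralog Epas1 was at 0.18, 0.24 and 0.22 TPM (0.364, 0.627 and 0.366 TPM in the FASTQ-made tables). Arnt, their shared partner, was at 22.4 ± 1.15 TPM. Myc was at 14.96, 5.23 and 5.25 TPM, with replicate 1 the high one. The glucose-sensing factor Mlxip was at 21 ± 1.12 TPM and its paralog Mlxipl at 0.02 TPM or less (0.105 to 0.211 TPM in the FASTQ-made tables), and Txnip, which restrains glucose uptake, was at 56.3 ± 3.88 TPM.

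The remaining subunits of pyruvate dehydrogenase lay on both sides of Pdha1 (44.2 ± 2.21 TPM), with Pdhb at 53.1 ± 2.07, Dlat at 20.5 ± 1.90, Dld at 78.4 ± 9.16 and Pdhx at 11.1 ± 1.55 TPM. The phosphatase genes that reactivate the enzyme were at 11.3 ± 2.45 TPM for Pdp1 and 3.79 ± 0.242 TPM for Pdp2, with the regulatory subunit Pdpr at 3.42 ± 0.589 TPM. Tigar, a fructose bisphosphatase-like enzyme, was at 5.52 ± 0.0907 TPM and Shpk, which phosphorylates sedoheptulose, at 1.31 ± 0.070 TPM. The phosphoglucomutases Pgm1 and Pgm2 were at 24.9 ± 1.84 and 16.5 ± 1.67 TPM and Pgm3 at 5.44 ± 1.29 TPM. The gluconeogenic genes Fbp1 and Fbp2 were listed at 0.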
